A study of Mus musculus with 13 samples.

Results

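The genes described here are 10 components of the NF-kB pathway, the subunits Nfkb1, Nfkb2 and Relb, the inhibitor-family genes Nfkbia, Nfkbie, Nfkbiz and Bcl3, and the ubiquitin regulators Tnfaip3, Tnip1 and Birc3. They were picked by symbol from the 25746 genes of the raw count table by a rule that names no measured value, although earlier results of these data were known when the set was drawn up, and all 10 were among the 16051 genes that passed the filter on low counts. Libraries were made from sorted interfollicular keratinocytes, which form the epidermis outside the hair follicles, of C57/BL6 mice. All mice carried floxed Il12rb2, the gene of an interleukin-12 receptor chain. Mice of genotype Il12rb2fl/fl without Cre, called floxed control, contributed 3 libraries from untreated skin and 3 from skin after 1 day of Aldara, a cream with 5% imiquimod, an agonist of Toll-like receptor 7. Il12rb2fl/fl mice that also carried K14Cre, a Cre recombinase driven by a keratin promoter active in keratinocytes, are called Il12rb2-deleted and contributed 4 libraries without treatment and 3 after Aldara. Ages of the animals are absent from the labels, and vehicle-treated mice or mice with K14Cre but no floxed alleles were not analysed here, so a response to imiquimod and a response to the cream cannot be told apart.

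NF-kB transcription factors are dimers that inhibitor proteins (IkB) hold in the cytoplasm of resting cells. Receptors for tumour necrosis factor, interleukin-1 family cytokines, interleukin-17 and microbial ligands activate a kinase complex that marks the inhibitor for destruction, and the freed dimers enter the nucleus. Among the first genes they switch on are their own inhibitors, so the transcripts described here are both parts of the pathway and well-known targets of it. In epidermis, variation in several of these genes has been linked to psoriasis, and the nuclear family member encoded by Nfkbiz takes part in the keratinocyte response to interleukin-17 and interleukin-36.

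Several members carry NF-kB motifs near their own start sites, and these sequences are shown because they are the textbook basis of the feedback. RefSeq promoter entries (GRCm38.p6, 250 bases before to 50 bases after the start) were found for 7 of the 10 members. Nfkb2 had 3 entries and Tnfaip3 had 2, of which only the entry nearest the annotated gene start was used. The Nfkbia promoter lies at chr12:55492598-55492897 on the minus strand, that of Tnfaip3 at chr10:19015361-19015660 on the minus strand, that of Nfkb2 at chr19:46304487-46304786 on the plus strand and that of Birc3 at chr9:7873121-7873420 on the minus strand. Each is written 5′ to 3′ along the gene, and capitals mark matches to the NF-kB consensus on either strand. The consensus searched was GGGRNWYYCC, where R is A or G, W is A or T, Y is C or T and N is any base.
Nfkbia: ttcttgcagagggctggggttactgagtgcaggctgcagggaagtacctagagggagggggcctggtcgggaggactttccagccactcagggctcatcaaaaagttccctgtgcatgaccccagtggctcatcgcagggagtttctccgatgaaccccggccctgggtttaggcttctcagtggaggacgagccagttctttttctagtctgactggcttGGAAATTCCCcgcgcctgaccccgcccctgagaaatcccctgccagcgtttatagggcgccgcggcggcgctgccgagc
Tnfaip3: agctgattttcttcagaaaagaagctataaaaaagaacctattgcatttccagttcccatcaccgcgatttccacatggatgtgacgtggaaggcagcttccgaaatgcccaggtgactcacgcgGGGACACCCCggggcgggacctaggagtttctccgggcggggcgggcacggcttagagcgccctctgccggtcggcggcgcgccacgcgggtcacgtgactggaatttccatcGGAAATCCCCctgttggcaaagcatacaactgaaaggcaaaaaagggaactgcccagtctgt
Nfkb2: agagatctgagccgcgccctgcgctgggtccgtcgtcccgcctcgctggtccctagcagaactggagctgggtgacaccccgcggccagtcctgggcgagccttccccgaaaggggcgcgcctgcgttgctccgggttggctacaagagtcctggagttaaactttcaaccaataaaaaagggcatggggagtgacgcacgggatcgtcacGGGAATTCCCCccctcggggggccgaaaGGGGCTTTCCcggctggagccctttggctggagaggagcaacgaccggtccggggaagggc
Birc3: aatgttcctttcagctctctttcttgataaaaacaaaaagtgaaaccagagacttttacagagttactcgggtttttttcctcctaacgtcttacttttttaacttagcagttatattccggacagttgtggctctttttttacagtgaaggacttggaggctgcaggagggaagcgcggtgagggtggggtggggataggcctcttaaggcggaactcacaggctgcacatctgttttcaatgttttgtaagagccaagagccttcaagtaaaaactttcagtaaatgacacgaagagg
In Nfkbia the match began 29 bases before the start site. Tnfaip3 had matches at 125 and 12 bases before it, and Nfkb2 had overlapping matches at 39 and 38 bases and another at 11 bases. The Birc3 sequence held no match to the consensus in this window.

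For the other members with an entry, only the stretch around the match is given. It lies at chr17:45555579-45555618 for Nfkbie (plus strand), chr11:54962972-54963013 for Tnip1 (minus strand) and chr7:19822729-19822768 for Bcl3 (minus strand).
Nfkbie: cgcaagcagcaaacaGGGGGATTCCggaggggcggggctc
Tnip1: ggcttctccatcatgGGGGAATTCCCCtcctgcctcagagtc
Bcl3: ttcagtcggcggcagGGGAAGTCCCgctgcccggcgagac
The match began 106 bases before the start site in Nfkbie and 2 bases after it in Bcl3, and overlapping matches began 58 to 56 bases before it in Tnip1. The consensus was present in 6 of the 7 members' promoters and in 4.51% of the 32851 mouse promoter entries of the same length. A match describes the letters in this window and is neither a shown binding site nor a cause of any value below.

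Library facts that bear on the results are these. Total counts ran from 5830034 to 22232478. Il12rb2 itself was at 17.1 to 78.8 CPM (counts scaled to a common library size with edgeR's TMM factors) in floxed control untreated, 8.52 to 25.6 in Il12rb2-deleted untreated, 1.98 to 8.14 in floxed control Aldara and 0 to 1.64 in Il12rb2-deleted Aldara libraries, so the untreated genotypes overlapped. The labels do not say which part of the gene is floxed, so its counts may not check the deletion. The 6 keratinocyte markers summed to 21438 to 57629 CPM in untreated and 10405 to 19682 CPM in Aldara libraries. Most of this sum was Krt14 and Krt5, and the markers were not alike. Krt10 was at 956 to 2488 CPM untreated and 22.4 to 169 CPM after Aldara, and Krt1 at 658 to 1627 and 17.1 to 285 CPM. Trp63 overlapped, at 492 to 780 and 366 to 554 CPM. Transcripts used as markers of other cells were also counted. Fibroblast and matrix markers summed to 776 to 1865 CPM untreated and 10.6 to 308 CPM after Aldara, Langerhans and macrophage markers to 51.3 to 299 and 93.5 to 585 CPM, and neutrophil markers, a list that holds S100a8, to 0.544 to 12.2 and 16.2 to 151 CPM. Most of the Langerhans and macrophage sum was Cd74 (20.6 to 455 CPM over all libraries) and H2-Aa (13.4 to 114 CPM). Csf1r (4.19 to 14.7 CPM) and Adgre1 (at most 2.57 CPM) added little. Endothelial and mural markers summed to 18.6 to 81.6 and 5.75 to 44.0 CPM, T cell markers to 8.18 to 28.7 and 4.53 to 9.92 CPM, melanocyte markers to 21.7 to 206 and 6.85 to 129 CPM, and hair follicle markers to 78.8 to 187 and 107 to 563 CPM. The pan-leukocyte gene Ptprc was at 0 to 10.6 and 0.102 to 3.94 CPM. Cd207, which marks Langerhans cells, was at 0 to 4.48 CPM in untreated libraries. After Aldara it was at most 0.116 CPM in floxed controls and at 0 in all Il12rb2-deleted libraries. Il12rb2-deleted Aldara replicate 1 stood apart, with a median Spearman correlation across genes to the other libraries of 0.847 against 0.884 to 0.929 for the rest, and 3 untreated libraries (floxed control 2, Il12rb2-deleted 1 and 2) held up to 14.2% of their counts in the predicted gene Gm10800.

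For levels compared between genes, length was the union of all annotated exons, from 1610 bases for Nfkbia to 12061 for Nfkb1. Genes with exons outside their expressed transcripts are placed too low by this measure. Compared per kilobase of exon, the inhibitor Nfkbia was by far the most abundant member. In untreated libraries its level was 1030 ± 445 CPM per kilobase (SD, n = 7), above every other member in 7 of 7 libraries. Nfkbiz (140 ± 55.5) and Tnfaip3 (131 ± 81.9) came next, with Nfkbiz the higher in 5 of 7 libraries, so their order was not fixed. Nfkb2 followed at 27.5 ± 9.71, below Tnfaip3 in all 7 libraries. Birc3 (16.3 ± 7.16) and Relb (14.6 ± 3.89) lay within each other's spread. So did Tnip1 (10.5 ± 3.26) and Bcl3 (6.99 ± 4.23), and Bcl3 and Nfkb1 (5.98 ± 0.730). By CPM not divided by length, Nfkb1 (mean 72.2) was above Bcl3 (mean 17.3) in untreated libraries. Tnip1 and Nfkb1 were apart by mean ± SD, but their libraries overlapped (Tnip1 down to 6.12, Nfkb1 up to 6.80). Nfkbie had the lowest mean, 4.38 ± 1.19, within the spread of Bcl3 and below Nfkb1 in 6 of 7 libraries.

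After Aldara the top 4 kept their order by mean. Nfkbia was at 470 ± 174 CPM per kilobase (SD, n = 6), Nfkbiz at 70.2 ± 16.4, Tnfaip3 at 18.2 ± 10.1 and Nfkb2 at 11.6 ± 2.73, with Tnfaip3 above Nfkb2 in 3 of 6 libraries only. Below them Tnip1 (7.74 ± 1.58), Bcl3 (6.48 ± 5.57), Nfkb1 (6.23 ± 1.40), Birc3 (5.63 ± 1.13) and Relb (5.30 ± 2.18) did not differ beyond their spread, and Nfkbie was at 2.14 ± 2.84.

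**Figure D1:**
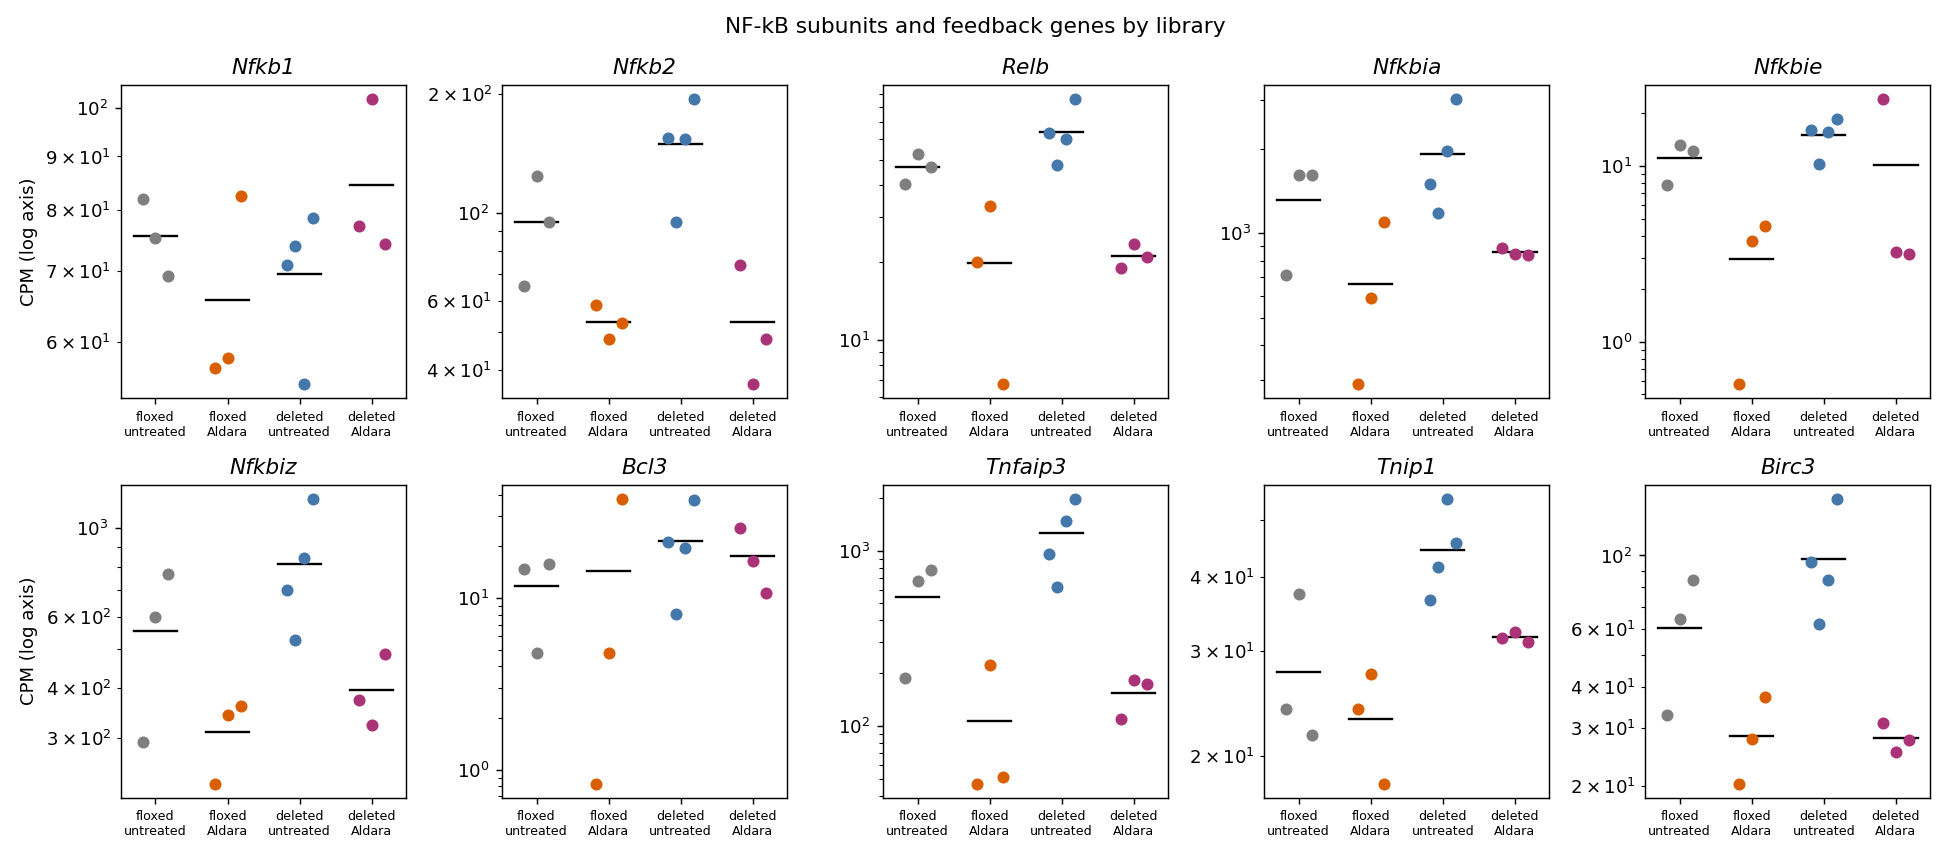
Level of each member in CPM (log axis, 1 panel per gene with its own scale) in the 13 libraries of the 4 groups, each point a library and each bar the group mean. Tnfaip3 sits at 187 to 1968 CPM in untreated and 47.1 to 223 CPM in Aldara libraries, while the Nfkb1 points of all 4 groups lie between 54.7 and 102 CPM.

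The comparison of treated with untreated keratinocytes asked what 1 day of Aldara was accompanied by. With the effects of both genotypes averaged, 6 of the 10 members were lower after Aldara and none was higher. These were Tnfaip3, Birc3, Relb, Nfkb2, Nfkbia and Nfkbiz, and the drops ran from 1.92-fold for Nfkbiz to 6.41-fold for Tnfaip3. Across all tested genes 11.9% were called lower, 13% higher and 24.9% in either direction (edgeR's quasi-likelihood test, Benjamini-Hochberg adjusted p under 0.05). The median log2 fold change was -1.12 over the members and -0.15 over all tested genes. In these bulk libraries fewer cells of a type and less RNA per cell cannot be told apart. All 6 calls were also made under every alternative tried for this averaged comparison.

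Among the subunits, Nfkb1, which encodes the precursor of the p50 subunit, did not pass the test. It was at 82.1, 75.3 and 69.3 CPM in floxed control untreated, 56.6, 57.9 and 82.6 in floxed control Aldara, 71.1, 74.1, 54.7 and 78.6 in Il12rb2-deleted untreated, and 77.3, 102 and 74.3 CPM in Il12rb2-deleted Aldara libraries. Treated and untreated libraries overlapped in both genotypes. The averaged log2 fold change was 0.04 (SE 0.16, 95% interval -0.29 to 0.37, adjusted p = 0.884 by edgeR), so a change of the size seen in the other subunits was outside the interval.

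Nfkb2 encodes the precursor of the p52 subunit of the alternative NF-kB pathway. Its counts gave 65.3, 124 and 94.7 CPM in floxed control untreated, 58.4, 47.9 and 52.8 in floxed control Aldara, 154, 94.9, 154 and 194 in Il12rb2-deleted untreated, and 74.0, 36.9 and 47.8 CPM in Il12rb2-deleted Aldara libraries. Within each genotype every Aldara library lay below every untreated one, although floxed control untreated replicate 1 fell below the highest deleted Aldara library. The fall was 2.25-fold on average (log2 fold change -1.17, SE 0.22, adjusted p = 0.00111 by edgeR). Exons of Nfkb2 (chr19:46304320-46312385, GRCm38) overlap those of Psd and of a long noncoding RNA on the opposite strand, and these libraries do not mark strand, so part of the count could belong to those genes.

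Relb, the partner of p52 in the alternative pathway, was the only member whose treated and untreated libraries did not overlap across genotypes, a separation that 5.48% of all tested genes showed towards lower and 6.29% towards higher values. Untreated libraries held 40.2, 52.9 and 47.0 CPM in floxed controls and 63.5, 47.9, 60.0 and 86.0 CPM in deleted mice. Aldara libraries held 20.1, 33.0 and 6.76 CPM in floxed controls and 19.0, 23.6 and 21.1 CPM in deleted mice. Its fall was 2.67-fold (log2 fold change -1.42, SE 0.28, adjusted p = 0.00201 by edgeR). Floxed control Aldara replicate 3 was by far the lowest, and without it the averaged log2 fold change was still -1.21.

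The remaining subunits, Rela and Rel, which encode the activating partners of p50, also fell. Rela went from 119 to 310 CPM in untreated to 77.5 to 108 CPM in Aldara libraries (averaged log2 fold change -1.05, SE 0.18, adjusted p = 0.000569 by edgeR), and Rel from 59.0 to 265 CPM to 22.3 to 65.3 CPM (-1.30, SE 0.26, adjusted p = 0.00193). Both were called lower in deleted mice (-1.40 and -2.06) and neither in floxed controls. There Rela did not pass (-0.69, adjusted p = 0.117 by edgeR) and the Rel groups overlapped (59.0 to 87.2 CPM untreated, 35.6 to 62.5 CPM after Aldara). Thus 4 of the 5 subunit genes were called lower in the averaged comparison and Nfkb1 was not. Their cytoplasmic and nuclear inhibitor relatives Nfkbib (log2 fold change 0.57) and Nfkbid (-1.19) did not pass the test.

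The balance of the subunit transcripts within a library differed by median between treatments. The ranges overlapped and the ratios were not tested. The ratio of Nfkb2 to Nfkb1 counts was 0.796 to 2.82 (median 1.65) in untreated and 0.362 to 1.03 (median 0.735) in Aldara libraries. In floxed controls, untreated replicate 1 (0.796) lay below Aldara replicates 1 (1.03) and 2 (0.827). Relb counts were 0.490 to 1.10 of Nfkb1 counts in untreated libraries (median 0.703) and 0.0819 to 0.570 after Aldara (median 0.265). A ratio within a library does not depend on depth or scaling, and it shows unequal change and not which gene moved. These ratios are of counts not divided by length, so they compare libraries and not genes.

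**Figure D2:**
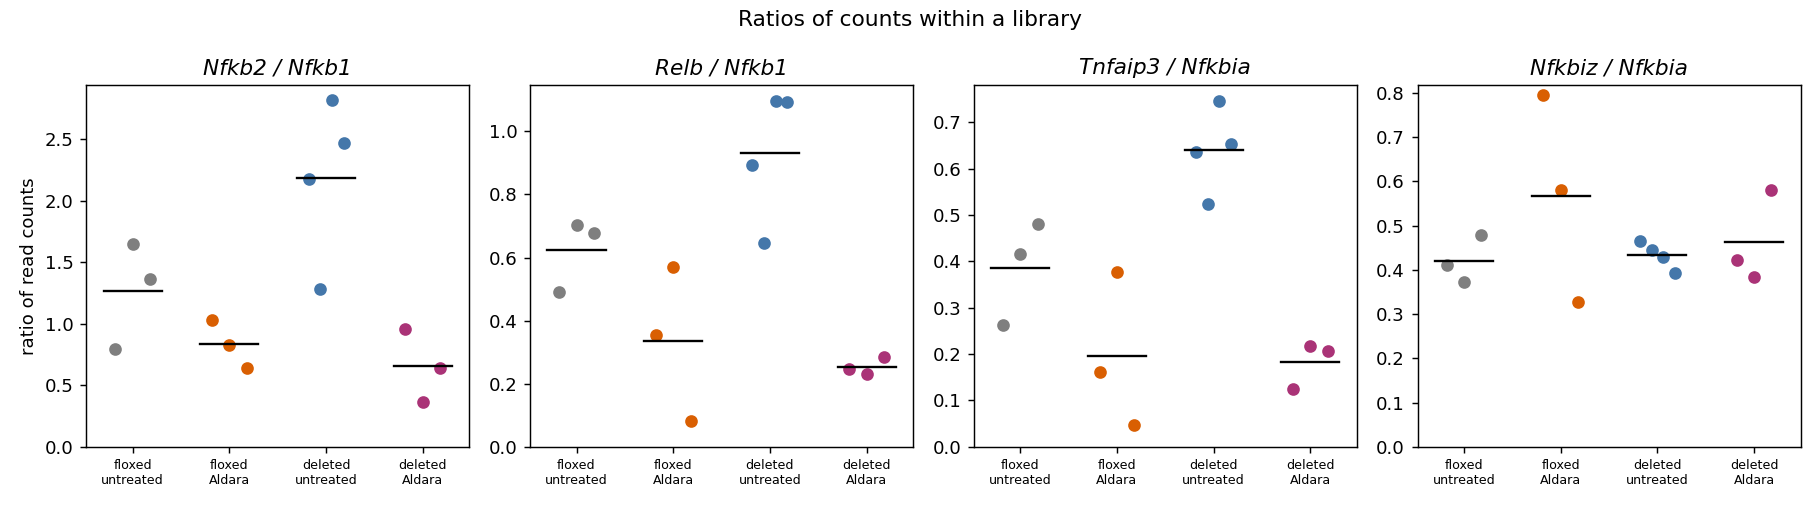
Ratios of raw read counts of paired genes within each library (linear axes from 0), each point a library and each bar the group mean. The ratio of Nfkb2 to Nfkb1 spans 0.796 to 2.82 in untreated and 0.362 to 1.03 in Aldara libraries. That of Nfkbiz to Nfkbia spans 0.372 to 0.478 in untreated and 0.328 to 0.794 in Aldara libraries.

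Of the cytoplasmic inhibitors, Nfkbia encodes IkB-alpha, which NF-kB induces within minutes and which ends its activity in the nucleus. It was at 712, 1616 and 1611 CPM in floxed control untreated, 290, 589 and 1097 in floxed control Aldara, 1505, 1185, 1965 and 3014 in Il12rb2-deleted untreated, and 886, 843 and 835 CPM in Il12rb2-deleted Aldara libraries. Treated and untreated libraries overlapped in the floxed controls, where untreated replicate 1 was low and Aldara replicate 3 high, and were apart in the deleted mice. The averaged fall was 2.11-fold (log2 fold change -1.08, SE 0.31, adjusted p = 0.0177 by edgeR), and with single libraries left out the adjusted p ran up to 0.0468.

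Nfkbie, which encodes IkB-epsilon, was a low transcript and its values were uneven. The 3 floxed control Aldara libraries (0.575, 3.72 and 4.53 CPM) lay below their untreated counterparts (7.81, 13.1 and 12.2 CPM). In the deleted mice Aldara replicates 2 and 3 were at 3.21 and 3.15 CPM, but replicate 1 was at 23.9 CPM, above all 4 untreated libraries (16.0, 10.3, 15.5 and 18.4 CPM). The averaged log2 fold change of -1.25 (SE 0.54, adjusted p = 0.111 by edgeR) did not pass. Without Il12rb2-deleted Aldara replicate 1, the library that stood apart across genes, it was -2.07 (adjusted p = 0.00477), and limma voom on all libraries gave -1.93 (adjusted p = 0.0113).

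Nfkbiz and Bcl3 encode IkB relatives that act in the nucleus with p50 and can switch genes on as well as off. For Nfkbiz the libraries held 293, 602 and 770 CPM in floxed control untreated, 231, 341 and 360 in floxed control Aldara, 701, 527, 845 and 1183 in Il12rb2-deleted untreated, and 374, 323 and 484 CPM in Il12rb2-deleted Aldara. The deleted groups were apart, and in the floxed controls untreated replicate 1 lay among the treated libraries. Its fall was 1.92-fold (log2 fold change -0.94, SE 0.24, adjusted p = 0.0104 by edgeR).

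Bcl3 showed no direction that held. Untreated libraries ranged from 4.80 to 37.0 CPM (median 15.7, n = 7) and Aldara libraries from 0.830 to 37.8 CPM (median 13.6, n = 6). The averaged log2 fold change was 0.01 with a 95% interval of -1.30 to 1.31 (adjusted p = 0.996 by edgeR), turned to -0.67 with limma voom, and ranged from -1.20 to 0.28 with single libraries left out. The interval is wide enough to hold a fall or a rise of more than 2-fold. Bcl3 (chr7:19808462-19822770) also overlaps the antisense gene Gm16175, and without strand their reads cannot be told apart.

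The largest fall among the members was that of Tnfaip3, which encodes A20, the ubiquitin-editing enzyme that shuts off signalling upstream of the kinase complex. Untreated libraries held 187, 673 and 775 CPM in floxed controls and 958, 620, 1466 and 1968 CPM in deleted mice. After Aldara they held 47.1, 223 and 51.6 CPM in floxed controls and 110, 183 and 173 CPM in deleted mice. The only overlap was between floxed control untreated replicate 1 and floxed control Aldara replicate 2. The averaged log2 fold change was -2.68 (SE 0.44, 95% interval -3.62 to -1.74, adjusted p = 0.000476 by edgeR), and it lay between -3.24 and -2.50 with single libraries left out.

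Against its fellow feedback gene Nfkbia, Tnfaip3 fell further. Tnfaip3 counts were 0.263 to 0.746 of Nfkbia counts in untreated libraries (median 0.523) and 0.0470 to 0.378 after Aldara (median 0.185). The median proportion of Nfkbiz to Nfkbia moved less, from 0.430 untreated to 0.500 after Aldara. Its range was wider after Aldara (0.328 to 0.794) than before (0.372 to 0.478). Untreated and Aldara ranges overlapped for both ratios. These ratios were not tested.

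Tnip1, which encodes ABIN1, an A20-binding protein, ranged from 21.6 to 54.2 CPM in untreated and 18.0 to 32.3 CPM in Aldara libraries. Its averaged log2 fold change of -0.38 (SE 0.19, 95% interval -0.78 to 0.03, adjusted p = 0.173 by edgeR) did not pass. In the deleted mice alone the 3 Aldara libraries (31.6, 32.3 and 31.1 CPM) lay just below the lowest untreated one (36.6 CPM).

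Birc3 encodes the ubiquitin ligase cIAP2, which is recruited to tumour necrosis factor receptors, helps activate the canonical pathway and restrains the alternative one. It was at 32.9, 64.2 and 84.3 CPM in floxed control untreated, 20.4, 27.8 and 37.3 in floxed control Aldara, 95.7, 62.2, 84.4 and 148 in Il12rb2-deleted untreated, and 31.0, 25.3 and 27.6 CPM in Il12rb2-deleted Aldara libraries. All Aldara libraries were at 37.3 CPM or below, and floxed control untreated replicate 1 was the only untreated library among them. The fall was 2.73-fold (log2 fold change -1.45, SE 0.25, adjusted p = 0.000746 by edgeR).

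**Figure D3:**
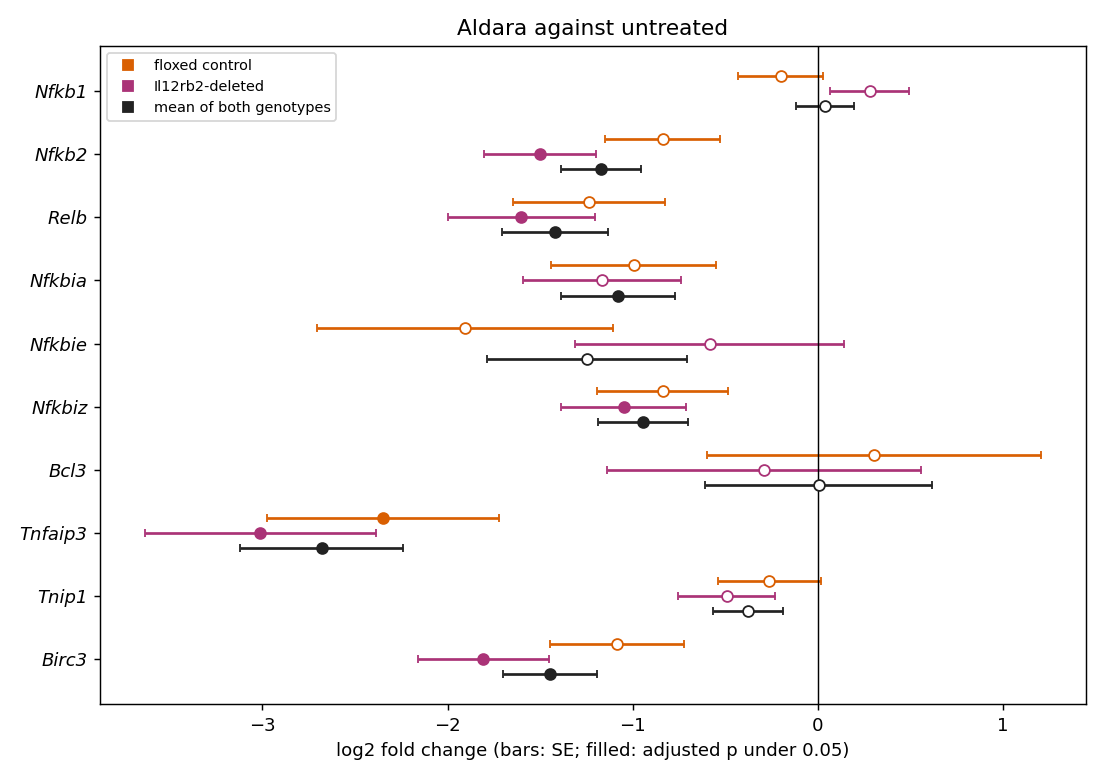
Log2 fold change of each member, Aldara against untreated, in floxed controls, in Il12rb2-deleted mice and averaged over both (points; bars are SE; filled points have an adjusted p under 0.05). The averaged values run from -2.68 for Tnfaip3 to 0.04 for Nfkb1, with Nfkb1 and Bcl3 next to 0.

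Within the genotypes fewer members passed. Both genotypes had values below 0 for 8 members, while Nfkb1 (-0.20 in floxed controls, 0.28 in deleted mice) and Bcl3 (0.30 and -0.29) differed in sign without passing in either. In floxed controls 1 of 10 members, Tnfaip3, was called lower (log2 fold change -2.35, SE 0.63, adjusted p = 0.0357 by edgeR), where 2.9% of all tested genes were called lower, 4.15% higher and 7.05% in either direction. That call was lost without untreated replicate 2 or 3 or Aldara replicate 1 or 3 (adjusted p up to 0.136) and when only the floxed groups were fitted (0.0723). Relb (-1.23, SE 0.41, adjusted p = 0.0841), Birc3 (-1.09, SE 0.36, 0.0844) and Nfkb2 (-0.84, SE 0.31, 0.121) came next without passing. For Nfkb2, Relb and Nfkbie the floxed groups did not overlap, towards lower values, as for 14.7% of all tested genes.

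In Il12rb2-deleted mice 5 of 10 members were called lower, Birc3 (log2 fold change -1.81, SE 0.35, adjusted p = 0.0035 by edgeR), Nfkb2 (-1.50, SE 0.30, 0.00406), Tnfaip3 (-3.01, SE 0.62, 0.00474), Relb (-1.60, SE 0.40, 0.0134) and Nfkbiz (-1.05, SE 0.34, 0.0471). Among all tested genes 7.69% were called lower and 15.5% in either direction. The Nfkbiz call was lost in 9 of the 13 fits that left out a library and without the filter on low counts (adjusted p = 0.0675), whereas the other 4 were kept in all of them. Nfkbia (-1.16, SE 0.43, adjusted p = 0.0773) just missed. Groups of deleted mice did not overlap for 7 members, namely Nfkb2, Relb, Nfkbia, Nfkbiz, Tnfaip3, Tnip1 and Birc3, against 14.8% of all tested genes towards lower values. That more members passed in the deleted mice does not show a stronger response there, and the test of that difference is given with the genotype comparisons.

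Libraries of a treatment differed in the summed level of the members. This sum was mostly Nfkbia, Nfkbiz and Tnfaip3, with untreated medians of 1611, 701 and 775 CPM. The next member, Nfkb2, had an untreated median of 124 CPM. Summed over the 10 genes, untreated libraries ran from 1460 CPM in floxed control replicate 1 to 6774 CPM in Il12rb2-deleted replicate 4 (median 3502), and Aldara libraries from 749 CPM in floxed control replicate 1 to 1748 CPM in floxed control replicate 3. Il12rb2-deleted untreated replicate 4 was the highest untreated library for 8 of 10 members, and floxed control untreated replicate 1 the lowest for 7. Among Aldara libraries floxed control replicate 1 was the lowest for 7 of 10. The closest pairs of members, by the root mean square distance between their standardised log2 CPM profiles over the 13 libraries, were Nfkbiz and Birc3 (0.326), Nfkbia and Nfkbiz (0.360) and Nfkb2 and Birc3 (0.384). Nfkb1 and Nfkb2 were the farthest apart (1.52).

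Immediate-early genes, which handling of cells as well as cytokines can induce, moved with the members. The 14 listed genes, Fos, Jun, Egr1, Atf3 and Dusp1 among them, summed to 9799 to 29044 CPM in untreated and 3526 to 11889 CPM in Aldara libraries. Of all tested genes 11.9% were called lower and 13% higher in the averaged comparison. Of the 14 listed, 11 were called lower there (median log2 fold change -1.43) and none higher. Floxed control untreated replicate 1 and floxed control Aldara replicate 1 were also the lowest of their treatment for these genes, and Il12rb2-deleted untreated replicate 4 the highest. Their part in the members' fall was not tested.

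The genes most alike in pattern to Nfkbia over the 13 libraries were Hbegf, a growth factor ligand of the epidermal growth factor receptor (distance 0.266), Plk2, a stress-induced kinase (0.300), and Ppp1r15a, a phosphatase subunit of the stress response (0.307). Those nearest to Nfkbiz were Il1rl2, the receptor for interleukin-36 (0.290), Hbegf (0.315) and Ddx5, an RNA helicase (0.316). These distances rest on the treatment difference as well as on differences within groups. All 5 genes were lower after Aldara in the averaged comparison, from -0.67 for Ddx5 to -1.79 for Ppp1r15a on the log2 scale. The call for Hbegf was lost without floxed control untreated replicate 2 or 3 or floxed control Aldara replicate 1 (adjusted p up to 0.0610 by edgeR) and without the libraries high in Gm10800 (0.0513), that for Il1rl2 without floxed control untreated replicate 3, floxed control Aldara replicate 1 or Il12rb2-deleted Aldara replicate 2 (up to 0.0716), and that for Ddx5 without the filter on low counts (0.0871).

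Upstream of the members, the receptors and proximal adaptors held calls in both directions in the averaged comparison, at a share close to that of all genes. Of 15 listed genes 14 were tested (Tlr7, the receptor of imiquimod, was too low), 3 were called higher and 1 lower, and the median log2 fold change was -0.26. Of all tested genes 24.9% were called in this comparison, 13% higher and 11.9% lower, which is the background for this and the next lists. Tnfrsf1a, the main tumour necrosis factor receptor, rose from 156 to 223 CPM in untreated to 274 to 408 CPM in Aldara libraries (log2 fold change 0.69, SE 0.13, adjusted p = 0.00166 by edgeR). Ltbr, the lymphotoxin receptor that feeds the alternative pathway, rose by 0.68 (SE 0.17, adjusted p = 0.00703), as did the interleukin-1 receptor kinase Irak1 by 0.80 (SE 0.21, adjusted p = 0.0112). Il1rap, the shared chain of interleukin-1 family receptors, fell by 1.13 (SE 0.24, adjusted p = 0.00269).

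The kinase and ubiquitin machinery that carries the signal to the IkB proteins fell in part, with 6 of 18 genes called lower, none higher and a median log2 fold change of -0.43. Birc2, the close relative of Birc3, fell from 40.8 to 60.8 CPM to 14.9 to 22.2 CPM (log2 fold change -1.37, SE 0.16, adjusted p = 5.89e-05 by edgeR). Traf5, an adaptor of tumour necrosis factor receptors, fell by 1.43 (SE 0.26, adjusted p = 0.000882) and Ripk1, the receptor-bound kinase, by 1.07 (SE 0.23, adjusted p = 0.00365). Ikbkb, Traf6 and Rnf31 were the other called genes. The count was 3 without floxed control Aldara replicate 3, without Il12rb2-deleted Aldara replicate 2, with no filter on low counts, and when the 3 libraries high in Gm10800 were left out.

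Other brakes of the pathway resembled the members in part, with 4 of 11 called lower, 1 higher and a median of -0.42. Tnip2 and Tnip3, which like Tnip1 encode A20-binding proteins, fell by 1.89 (SE 0.28, adjusted p = 0.000264 by edgeR) and 2.85 (SE 0.55, adjusted p = 0.00148) on the log2 scale. In deleted mice Tnip3 went from 15.8 to 58.0 CPM untreated to 0.714 to 1.33 CPM after Aldara. In floxed controls its groups overlapped, at 3.09 to 22.8 CPM untreated and 1.66 to 10.8 CPM after Aldara. Zfp36, which encodes the RNA-destabilising protein tristetraprolin, fell by 1.93 (SE 0.32, adjusted p = 0.000484) from 382 to 1054 CPM to 98.5 to 378 CPM. Tax1bp1, an A20 adaptor, fell by 0.42 (SE 0.14, adjusted p = 0.0415). The Tax1bp1 call was lost without floxed control untreated replicate 1 or 3, floxed control Aldara replicate 1, Il12rb2-deleted untreated replicate 1, 2 or 4, or Il12rb2-deleted Aldara replicate 1 or 3, where the other 3 kept theirs. Irak3, a kinase-dead inhibitor of Toll-like and interleukin-1 receptors, rose by 1.00 (SE 0.24, adjusted p = 0.00605). DESeq2 called 8 of these genes and limma voom 9, and 3 were called without the libraries high in Gm10800, all of them lower, so that the rise of Irak3 no longer passed there.

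Inflammatory genes that NF-kB can drive split into groups that rose and fell. Of 22 listed genes 20 were tested, of which 7 rose, 5 fell and 8 did not pass, with a median of -0.21. Sod2, the mitochondrial superoxide dismutase, rose from 75.6 to 98.8 CPM to 145 to 209 CPM (log2 fold change 1.02, SE 0.14, adjusted p = 0.000119 by edgeR). Lcn2, the iron-binding antimicrobial protein lipocalin, rose from 1.86 to 130.5 CPM to 315 to 2269 CPM (5.26, SE 0.83, adjusted p = 0.000355). The neutrophil chemokines Cxcl1 and Cxcl2, the antimicrobial proteins S100a8 and S100a9 and the acute-phase gene Saa3 were the others that rose. Of these, Cxcl2 was low and uneven. It was at 1.56 to 2.40 CPM in Il12rb2-deleted untreated and 1.28 to 54.4 CPM (mean 19.1, SD 30.6, n = 3) in Il12rb2-deleted Aldara libraries. In floxed controls it was at 0.320 to 1.31 CPM untreated and 0.487 to 3.02 CPM after Aldara. Icam1, the adhesion receptor for leukocytes, fell from 131 to 597 CPM to 59.2 to 124 CPM (-1.74, SE 0.26, adjusted p = 0.00023), and Il6, Ptgs2, Irf1 and Plau fell too. The summed neutrophil markers were higher in the same libraries, at up to 151 CPM, most of it S100a8, which is itself one of these targets. Of the other markers in that list, Cxcr2 was at 0 to 1.19 CPM in untreated and 0.192 to 9.31 CPM in Aldara libraries, while Ly6g (at most 0.320 and 0.116 CPM) and Csf3r (at most 0.792 and 0.511 CPM) were near 0 in both.

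**Figure D4:**
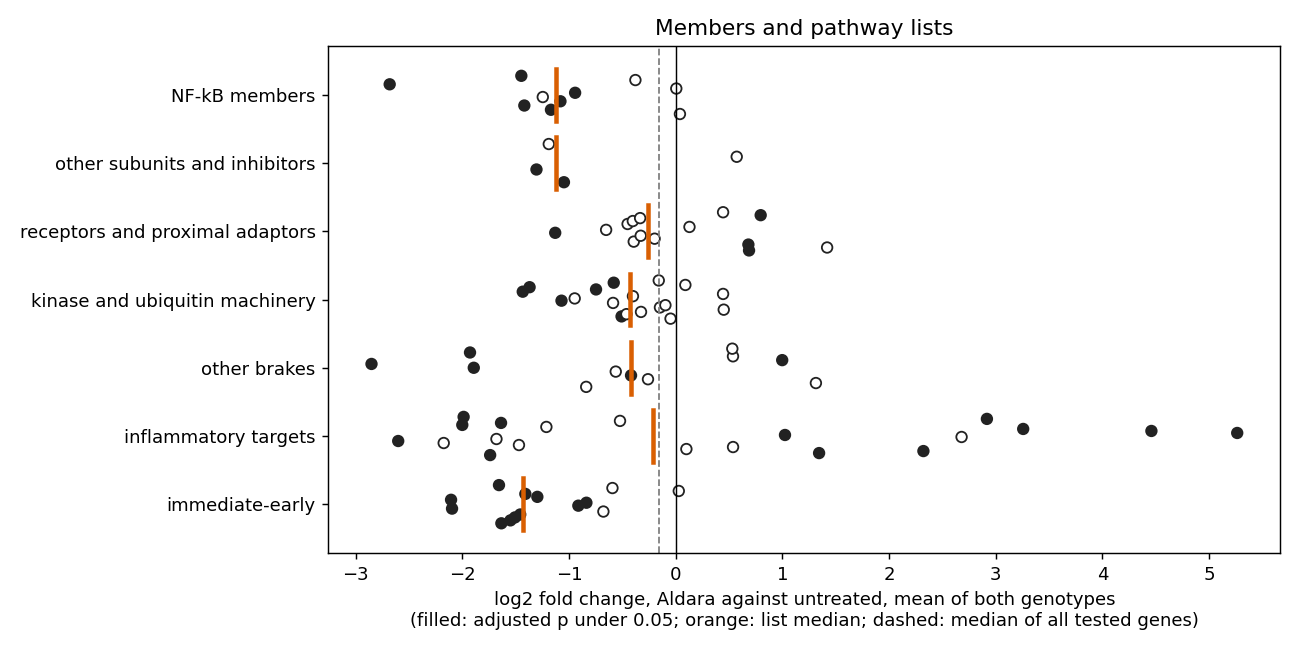
Log2 fold change, Aldara against untreated averaged over both genotypes, of each tested gene (points; filled where the adjusted p is under 0.05) in the 10 members, the 5 lists of other pathway genes and the immediate-early list. Orange bars are list medians, at -1.12 for the members and -0.21 for the inflammatory targets, and the dashed line is the median of all tested genes.

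The comparison of Il12rb2-deleted with floxed control mice asked what the deletion was accompanied by, before and after treatment. In untreated keratinocytes no member was called, and no gene of the 16051 was (0% in either direction by edgeR, 599 genes at an unadjusted p under 0.05, 18 called by DESeq2, none of them a member). The fitted values of 9 of 10 members were above 0, with a median of 0.61 against -0.05 for all genes. Tnip1 (log2 fold change 0.69, 95% interval 0.12 to 1.25) and Nfkb2 (0.66, interval 0.04 to 1.28) reached unadjusted p of 0.0199 and 0.0392 by edgeR, with an adjusted p of 1 for both. The intervals of Tnfaip3 (1.20, interval -0.02 to 2.42) and Birc3 (0.69, interval -0.03 to 1.41) included 0. Nfkb1 was at -0.12 (interval -0.57 to 0.34). The groups overlapped for all 10 members, whereas 3.26% of all tested genes were apart towards lower and 2.77% towards higher values. These 10 values are not separate observations, since they come from the same 7 libraries, of which a floxed control had the lowest and a deleted one the highest sum over the members.

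After Aldara no member was called either, and again no gene was (0% by edgeR, 690 genes at an unadjusted p under 0.05, 30 called by DESeq2, none of them a member). The fitted values of 8 members were above 0, with a median of 0.35 against -0.02 for all genes. Nfkbie had the largest value, 1.77 (95% interval 0.07 to 3.48, adjusted p = 0.982 by edgeR), but without Il12rb2-deleted Aldara replicate 1 it was 0.12. Tnip1 was the only member whose groups did not overlap, at 31.1 to 32.3 CPM in deleted and 18.0 to 27.4 CPM in floxed control libraries, a separation that 4.37% of all tested genes showed towards higher and 4.72% towards lower values. Its log2 fold change was 0.46 (interval -0.14 to 1.05, adjusted p = 0.982 by edgeR). Relb (0.10, interval -0.77 to 0.97), Nfkb2 (-0.01, interval -0.66 to 0.65) and Birc3 (-0.03, interval -0.79 to 0.74) were close to 0, though their intervals do not exclude differences of 1.5-fold.

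**Figure D5:**
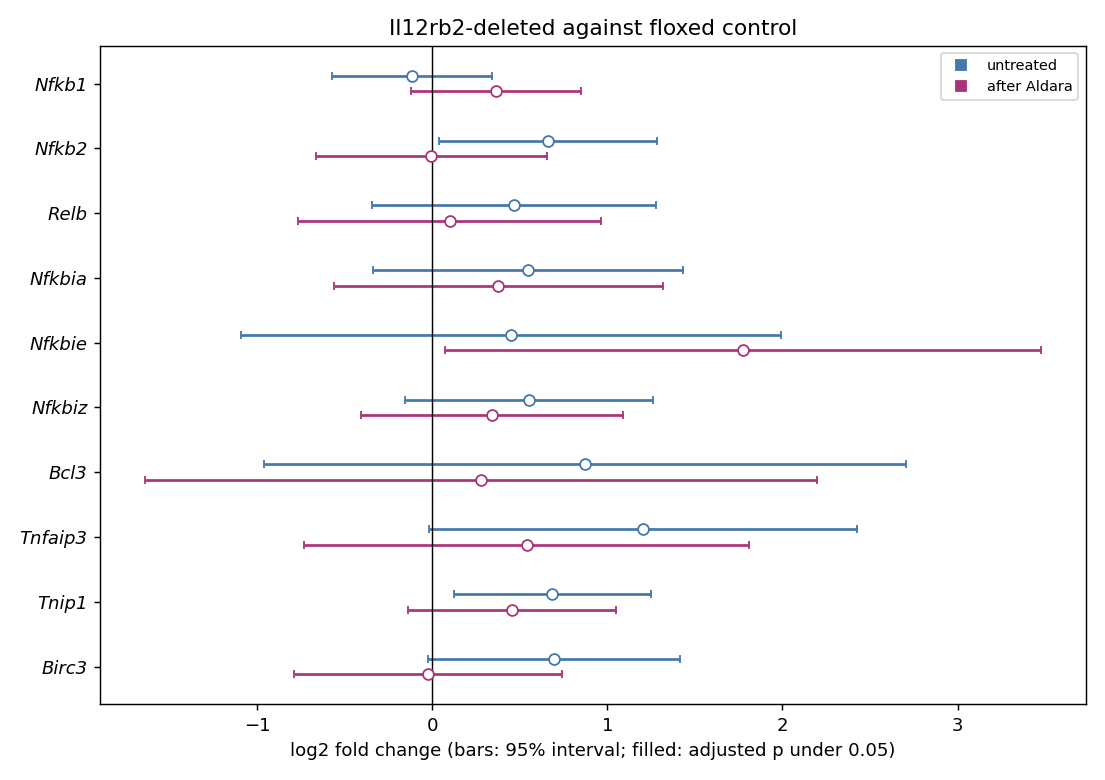
Log2 fold change of each member, Il12rb2-deleted against floxed control, in untreated and in Aldara libraries (points; bars are 95% intervals). All points are open because none had an adjusted p under 0.05, and the widest intervals are those of Bcl3 and Nfkbie.

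Whether the Aldara effect differed by genotype was tested with the interaction of deletion and treatment. It called no member and no gene (0% by edgeR, 539 genes at an unadjusted p under 0.05 but no member, 3 called by DESeq2, none of them a member). For Nfkb2 the effect in deleted mice was lower by 0.67 on the log2 scale (95% interval of the difference -1.57 to 0.24), for Birc3 by 0.72 (-1.77 to 0.33) and for Tnfaip3 by 0.66 (-2.40 to 1.08). The Tnfaip3 difference turned to 0.45 without floxed control Aldara replicate 2. For Nfkb1 the difference was 0.48 (-0.19 to 1.15) and for Nfkbie 1.32 (-0.93 to 3.58), which turned to -0.34 without Il12rb2-deleted Aldara replicate 1. All adjusted p-values of the members were 1 by edgeR, and these intervals hold differences of more than 2-fold in all 10 members, so they do not show that the genotypes responded alike.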

How the data were processed

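RNA of sorted interfollicular keratinocytes was copied with Smart-seq2, which marks neither strand nor molecules, and read single-end at 100 bases on a NovaSeq, per the labels' protocols. The authors deposited a table of raw, unnormalized counts of reads per gene with Ensembl identifiers. STAR, featureCounts of the Subread package and build GRCm38 are named in the submitters' processing notes. Versions, annotation release, strand setting and the handling of multimapping reads were not given in the sources used here. The labels do not say whether replicates were separate animals, so each p-value reflects the spread between these samples alone, and that spread may be technical.

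From the counts, genes were kept with filterByExpr at a minimum count of 10, and edgeR 4.0.16 (R 4.3.3) fitted TMM-scaled counts of all 13 libraries with 1 coefficient per group. The quasi-likelihood F test gave 6 contrasts, with Benjamini-Hochberg adjustment over 16051 genes and calls at an adjusted p under 0.05. SE was taken as the size of the log2 fold change over the square root of F. Alternatives were RLE size factors, DESeq2 1.42.0, limma voom 3.58.1, no filter, only the groups compared, the replicate number as a block, leaving out the 3 libraries high in Gm10800, and leaving out each library. The steps were also run on simulated counts with set Aldara changes alike in both genotypes, and the recovery is not given here. No genotype difference was simulated, so that run does not measure how well such differences are found. Exonic lengths (the union of all annotated exons of a gene) and coordinates came from GENCODE M21 on GRCm38, promoters from RefSeq on GRCm38.p6. Of 70 other pathway genes, all were found (Il36g under its synonym Il1f9) and 67 tested.

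All members are named, and of each pathway list the counts per direction with up to 3 called genes of smallest p. The genes alike to Nfkbia and Nfkbiz were the 3 nearest with a mean log2 CPM of 3 or more (prior count 2), predicted genes left out. Other genes named, and the immediate-early list, were chosen after their values were seen. Members and lists were chosen with earlier results of these data known. Same-numbered libraries of different groups had correlations of their deviations between -0.0982 and 0.421. The labels do not say whether the numbers pair libraries, and these correlations do not settle it.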

Additional observations from a re-analysis of the deposited data

How the results depend on the processing

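The 6 members called lower in the averaged Aldara comparison were called under every alternative run for it, with 6 to 7 members called when single libraries were left out. The genes called there numbered 2622 without the 3 libraries high in Gm10800 and 3142 to 4004 with single libraries left out (3994 as reported). In the deleted mice the genes called were 1466 without those 3 libraries and 1650 to 2764 with single libraries left out (2489 as reported), and the members 4 to 6. Floxed controls were the least stable. There DESeq2 called 2169 genes and 3 members, limma voom 2 members, the fit of only those groups 0 members, the fit without the libraries high in Gm10800 270 genes and 0 members, and fits without single libraries 215 to 1451 genes and 0 to 2 members (1132 and 1 as reported; the lowest was without floxed control untreated replicate 2). The deletion effect in untreated mice gave 18 genes with DESeq2 and 3 without a filter, that after Aldara 30 and 1, and the interaction 3 with DESeq2 and 0 to 1 with single libraries left out. The causes were not tested. DESeq2, which also fits genes under the filter, gave medians over all genes of -0.34, -0.19 and -0.40 (log2) in floxed controls, deleted mice and the average, against -0.13, -0.09 and -0.15 by edgeR, and the members called lower lay below both.

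Bcl3 changed sign most often. Its log2 fold change in floxed controls was -0.83 with limma voom, -0.039 without the libraries high in Gm10800 and -2.11 to 0.86 with single libraries left out. In deleted mice it was -0.67 to 0.11 with single libraries left out. Averaged, it was -0.67 with limma voom, -0.37 without the libraries high in Gm10800 and -1.20 to 0.28 with single libraries left out. Tnip1 in floxed controls was 0.028 without those 3 libraries and -0.42 to 0.016 with single libraries left out, and averaged Nfkb1 was -0.061 to 0.087. In the interaction, Nfkbie ran from -0.34 to 1.81 and Tnfaip3 from -1.03 to 0.45.

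With the replicate number as a block, 831, 1919 and 3581 genes and 1, 4 and 6 members were called in floxed controls, deleted mice and the average. Nfkbiz in deleted mice then missed (log2 fold change -0.82, adjusted p = 0.0840), Il1rl2 averaged missed (-0.60, adjusted p = 0.0596), and Bcl3 was -0.022 in floxed controls and 0.37 in deleted mice. Of the 13 libraries, 6 correlated best with their own number.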

Other observations

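The members did not share a single order across the Aldara libraries. Floxed control Aldara replicate 3 had the lowest Relb of all 13 libraries (6.76 CPM) and a low Tnfaip3 (51.6 CPM), yet the highest Nfkbia (1097 CPM) and Bcl3 (37.8 CPM) of the Aldara libraries. In Il12rb2-deleted Aldara replicate 1, Nfkbie (23.9 CPM) was the highest of all 13 libraries while Tnfaip3 (110 CPM) was the lowest of its group. These libraries were singled out after their values were seen.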
